A study of Homo sapiens with 6 samples.

Results

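The integrins are the paired alpha and beta receptors by which a cell holds on to extracellular matrix, and the focal adhesion adaptors are the cytoplasmic proteins that join them to actin. The genes described here are those of the deposited table that are protein-coding and carry an integrin alpha or beta symbol, without the integrin-binding protein genes, together with 14 named adaptor genes. This gave 41 genes of 60843 in the table, of which 18 encode alpha subunits, 8 encode beta subunits, 1 is the beta-like gene ITGBL1 and 14 encode adaptors. RNA was sequenced from 3 libraries labelled TP53INP2 OE, called TP53INP2_OE here, and from 3 libraries labelled TP53INP2 NC, called NC. All 6 came from SW872-S, a human liposarcoma cell line grown in DMEM with serum, and the TP53INP2_OE cells carried a plasmid that overexpresses TP53INP2. The labels do not say whether NC cells carried an empty plasmid, whether the plasmid was kept stably, or whether the 3 libraries of a group were separate cultures, so p-values measure the spread between libraries, which may be technical. The design text also speaks of 2 cell sources without saying which. TP53INP2 encodes a regulator of autophagy. Its value adds reads of the plasmid copy to those of the endogenous one.

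An integrin works only as a pair, and the alpha subunit mostly sets what it binds. Alpha 1, 2, 10 and 11 with beta 1 bind collagens, alpha 3, 6 and 7 bind laminins, and alpha 5, alpha V, alpha 8 and alpha IIb bind ligands that carry the peptide RGD, such as fibronectin and vitronectin. Talin and the kindlins bind beta subunit tails and switch the pair on, after which vinculin, paxillin, zyxin, the focal adhesion kinase and the complex of ILK, PINCH and parvin build up at the site. Mesenchymal cells spread and pull on matrix through these sites, and YAP, the coactivator named in the title of the study, is known to respond to that tension.

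The values are FPKM, fragments per kilobase of gene scaled to library size, as the authors deposited them, and they corresponded to between 16038062 and 17607612 reads per library. TP53INP2 was at 18.9, 23.4 and 27.1 FPKM in the TP53INP2_OE libraries, against 10.6, 9.45 and 9.67 FPKM in the NC libraries. The groups did not overlap, and the log2 fold change came to 1.13 ± 0.12 (SE; limma, adjusted p = 0.00282). Of the mesenchymal markers VIM and COL1A1 were high, with at least 719 and 82.7 FPKM in every library. THY1 did not exceed 0.210 and COL1A2 did not exceed 0.0170 FPKM. The groups overlapped for VIM. COL1A1 was lower without overlap, at 82.7 to 92.8 FPKM in TP53INP2_OE, against 118 to 127 FPKM in NC. PDGFRB was lower as well, at 5.42 to 6.16 FPKM in TP53INP2_OE and 7.16 to 8.97 FPKM in NC, without overlap. Of 5 adipocyte markers 3 were at 0 in all libraries, and their sum was between 0.0650 and 0.146 FPKM in TP53INP2_OE and between 0 and 0.0323 FPKM in NC. The sums over 6 leukocyte, 5 epithelial and 4 platelet markers stayed at or below 0.5125 FPKM in every library. The 4 endothelial markers summed to between 32.0 and 33.6 FPKM in TP53INP2_OE and between 34.5 and 39.5 FPKM in NC. CDH5 made up most of this and was at 27.3 to 28.6 FPKM in TP53INP2_OE, against 30.1 to 35.0 FPKM in NC, without overlap. PECAM1 was at 3.81 to 4.11 FPKM in TP53INP2_OE and 3.46 to 3.92 FPKM in NC, and the groups overlapped. VWF went the other way from CDH5 without overlap, at 0.797 to 0.825 FPKM in TP53INP2_OE and 0.658 to 0.720 FPKM in NC. CLDN5 was at 0.0360 to 0.216 FPKM in TP53INP2_OE and 0.0330 to 0.358 FPKM in NC. The part of these markers in the results was not tested. In bulk RNA, fewer cells of a kind and less RNA per cell cannot be told apart.

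The collagen-binding alpha subunits held the largest change. ITGA2, the alpha subunit of the main collagen receptor of many epithelial and mesenchymal cells, was 2.07 times as high in TP53INP2_OE, and its neighbour on chromosome 5, ITGA1, was also higher, while ITGA11 was lower and ITGA10 did not pass the test. The promoters of the 3 that changed are shown first, because ITGA2 and ITGA1 lie side by side and moved the same way and ITGA11 moved the other way. They are the 250 bases before and the 50 bases after the gene start given by RefSeq on GRCh38.p14, read 5′ to 3′ on the gene's strand, at chr5:52989102-52989401 (plus strand) for ITGA2, chr5:52787666-52787965 (plus strand) for ITGA1 and chr15:68432114-68432413 (minus strand) for ITGA11. Capitals mark the GC box GGGCGG.
ITGA2: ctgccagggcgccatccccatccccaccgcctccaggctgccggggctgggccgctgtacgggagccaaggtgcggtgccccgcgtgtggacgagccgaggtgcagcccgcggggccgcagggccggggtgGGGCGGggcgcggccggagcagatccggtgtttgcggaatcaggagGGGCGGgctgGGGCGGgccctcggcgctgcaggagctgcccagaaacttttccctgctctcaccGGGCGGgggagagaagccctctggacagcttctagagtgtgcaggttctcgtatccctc
ITGA1: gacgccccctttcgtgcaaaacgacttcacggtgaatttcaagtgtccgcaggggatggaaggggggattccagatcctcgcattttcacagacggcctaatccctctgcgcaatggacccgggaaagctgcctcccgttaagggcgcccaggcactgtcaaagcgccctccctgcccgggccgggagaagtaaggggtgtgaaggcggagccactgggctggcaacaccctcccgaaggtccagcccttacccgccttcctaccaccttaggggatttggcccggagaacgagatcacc
ITGA11: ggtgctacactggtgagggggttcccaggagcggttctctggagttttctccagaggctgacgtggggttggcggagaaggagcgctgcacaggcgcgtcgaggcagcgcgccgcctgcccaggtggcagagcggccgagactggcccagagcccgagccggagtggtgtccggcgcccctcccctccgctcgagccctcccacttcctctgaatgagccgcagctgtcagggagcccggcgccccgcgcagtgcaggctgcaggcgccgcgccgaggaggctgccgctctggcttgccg
The window of ITGA2 held 4 GC boxes, and those of ITGA1 and ITGA11 held none. On either strand a GC box stood in 45.0% of 35116 RefSeq promoter windows, the TEAD motif CATTCC in 14.0% and the AP-1 motif TGANTCA in 7.71%. TEAD proteins are the DNA-binding partners of YAP, and their motif was in none of these 3 windows. Of the 48 windows listed for 29 member genes, 7 held the TEAD motif (14.6%), those of ITGA10, ITGA5, ITGB1, PXN, TNS1 and VCL, 3 held the AP-1 motif (6.25%) and 27 held a GC box (56.25%). These 29 genes are not the 29 tested ones, since they include ITGA2B, ITGA8, ITGAM, ITGB6, ITGB7 and ITGB8, which were not tested. Their windows were richer in GC, with a median GC content of 63.2%, beside 58.7% over all windows. Windows of FERMT1, ITGA3, ITGA7, ITGA9, ITGAD, ITGAL, ITGAX, ITGB2, ITGB3, ITGB4, PARVA and PTK2 were not used here. Matches of this kind are letters in a window and no evidence of binding, and a window without a match says nothing of sites elsewhere. The ITGA1 window is listed for PELO as well, since both genes start there.

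ITGA2 (ENSG00000164171, chromosome 5, positions 52989340 to 53094779 on GRCh38) was at 102, 110 and 111 FPKM in the TP53INP2_OE libraries, against 47.3, 59.5 and 49.7 FPKM in the NC libraries. The lowest TP53INP2_OE value was well above the highest NC value, and the means were 108 ± 4.93 and 52.2 ± 6.48 FPKM (SD, n = 3 each), a ratio of 2.07. Values after ± are SDs over 3 libraries throughout, unless marked SE. On the log2 scale of FPKM + 1 the difference was 1.04 ± 0.086 (SE; limma, adjusted p = 0.00225). Between 6086 and 14973 reads per library stood behind these values. Two-sided exact permutation of 6 values cannot give a p below 0.1, so the calls here rest on limma, whose spread is shared over all genes.

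ITGA1 (chromosome 5, 52787916 to 52959209) encodes a receptor subunit with a preference for basement membrane collagen, and was at 5.68, 6.85 and 6.32 FPKM in TP53INP2_OE, against 3.62, 3.90 and 3.62 FPKM in NC. Its groups were apart as well, by 0.63 ± 0.070 on the log2 scale (SE; limma, adjusted p = 0.00290). It ends 30130 bases before ITGA2 starts on the same strand. PELO is a ribosome rescue gene that shares the first 9.42% of the ITGA1 span on the same strand. It was at 13.6 ± 0.22 FPKM in TP53INP2_OE and 13.4 ± 0.97 FPKM in NC and did not pass (log2 fold change 0.021, limma adjusted p = 0.796). How reads in the shared stretch were assigned is not stated, so the reads of ITGA1 there are uncertain. Among the genes tested within 500000 bases of this pair, looked at after their values were known, MOCS2 (log2 fold change 0.27, limma adjusted p = 0.0113) and FST (0.56, limma adjusted p = 0.00225) were higher, and NDUFS4 (-0.0058, limma adjusted p = 0.936) did not pass. After the correction for GC content described further on, MOCS2 stood at 0.060 and did not pass, and FST at 0.50 and passed. The 2 long noncoding RNAs on the opposite strand inside ITGA2 had at most 2.18 FPKM in any library. Neither passed, but both were higher in TP53INP2_OE without overlap, AC008966.3 by 0.52 (limma adjusted p = 0.0514) and AC008966.2 by 0.67 (limma adjusted p = 0.0549) on the log2 scale. The strand setting of the counting is unknown.

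ITGA11 (chromosome 15, 68296532 to 68432163), a subunit for fibrillar collagen found on fibroblasts, was at 6.34, 5.29 and 5.65 FPKM in TP53INP2_OE, against 7.36, 7.15 and 6.78 FPKM in NC. The groups did not overlap, and ITGA11 fell by 0.26 on the log2 scale (SE 0.068; limma, adjusted p = 0.0245). The call was lost in 4 of the 6 fits that left out a library, those without NC replicate 1 or 2 or TP53INP2_OE replicate 2 or 3, where limma gave adjusted p = 0.0842, 0.0748, 0.0624 and 0.0671. ITGA10, the fourth collagen-binding subunit, was at 0.86 ± 0.14 FPKM in TP53INP2_OE and 1.21 ± 0.17 FPKM in NC and did not pass (log2 fold change -0.25, limma adjusted p = 0.118). It had between 73 and 153 reads per library, and passed in a single setting, limma voom on recovered reads (adjusted p = 0.0214). Within each library the ratio of ITGA1 to ITGA11 was 1.10 ± 0.20 in TP53INP2_OE and 0.523 ± 0.029 in NC (SD, n = 3 each; two-sided exact permutation p = 0.1, the smallest possible).

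**Figure D1:**
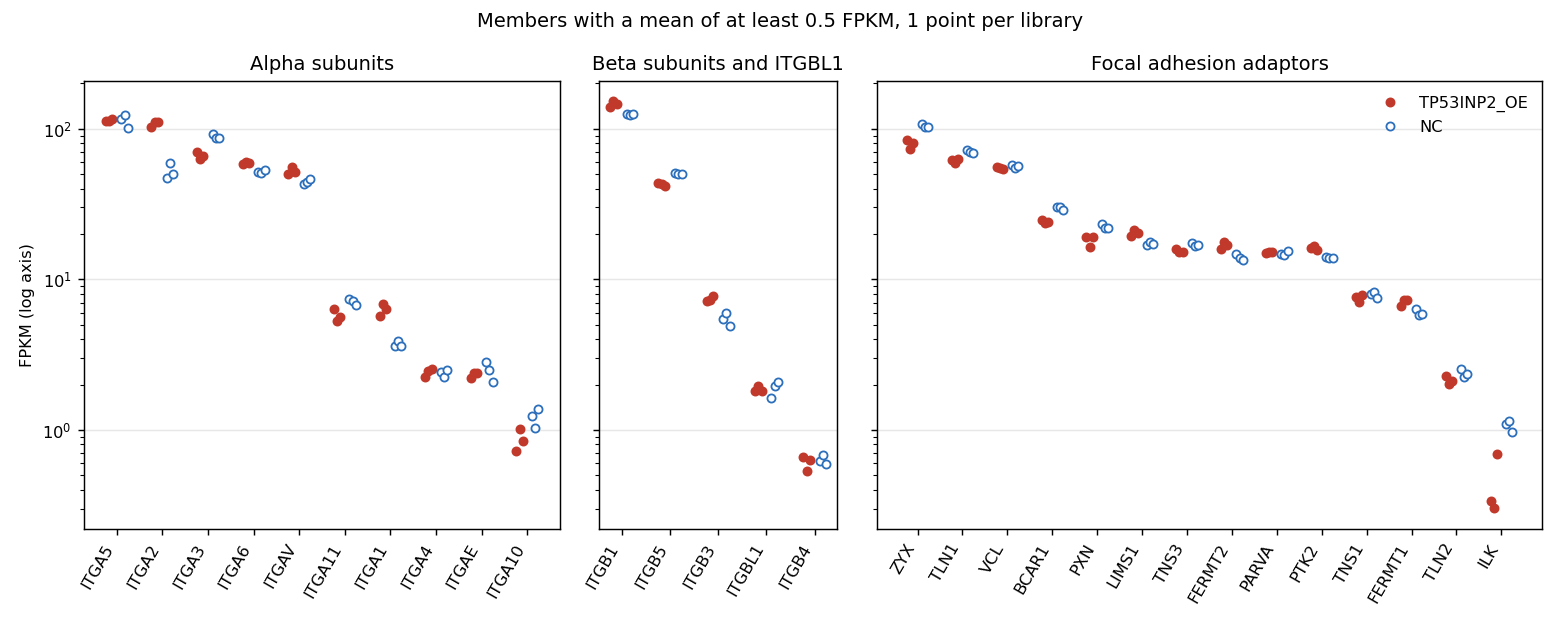
FPKM of the 29 members with a mean of at least 0.5 FPKM, on a log axis, in panels for alpha subunits, beta subunits and adaptors, each ordered by mean level. Every point is a library, filled red for TP53INP2_OE and open blue for NC, and for ITGA2 all TP53INP2_OE libraries lie at or above 102 FPKM and all NC libraries at or below 59.5 FPKM.

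Counting all member genes, 29 of 41 reached 0.5 FPKM on average across the libraries and were tested, and 10 of them rose and 9 fell (limma, adjusted p below 0.05 over all 14791 tested genes). Among all tested genes 16.4% were called higher and 18.6% lower, or 35.0% in all. Without NC replicate 1 the members called were 10 higher and 5 lower. The libraries of the 2 groups did not overlap for 20 of the 29 members and for 50.8% of all tested genes. The median log2 fold change was -0.024 over the tested members and 0.0032 over all tested genes. The other 12 members were at or below 0.509 FPKM in every library and are given at the end.

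The fold changes went with the base composition of the transcripts. Over the 29 tested members fold change and GC content of the longest transcript in GENCODE 29 had a Spearman rho of -0.794, beside -0.783 over 11270 tested protein-coding genes, where genes share libraries and are not independent. The 10 members that rose had GC contents between 36.3% and 52.3%, and the 9 that fell between 49.6% and 64.9%. Each library's trend on GC content and gene length was therefore fitted out and the test repeated. With this correction 3 members rose, ITGA2, ITGA1 and ITGB3, and 2 fell, ITGA11 and ITGA3, and no adaptor passed. Of all genes, 4.53% were then called higher and 5.88% lower, or 10.4% in all. Without NC replicate 1 the corrected fit called ITGA2 alone. The corrected count of falls was 0, 1 or 2 when a library was left out, and 0 without NC replicate 1 or 3 or TP53INP2_OE replicate 2 or 3. Corrected values of the called members stand beside the uncorrected ones below. Sums, shares and ratios of genes are given from uncorrected FPKM only. The cause of the trend was not tested.

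**Figure D2:**
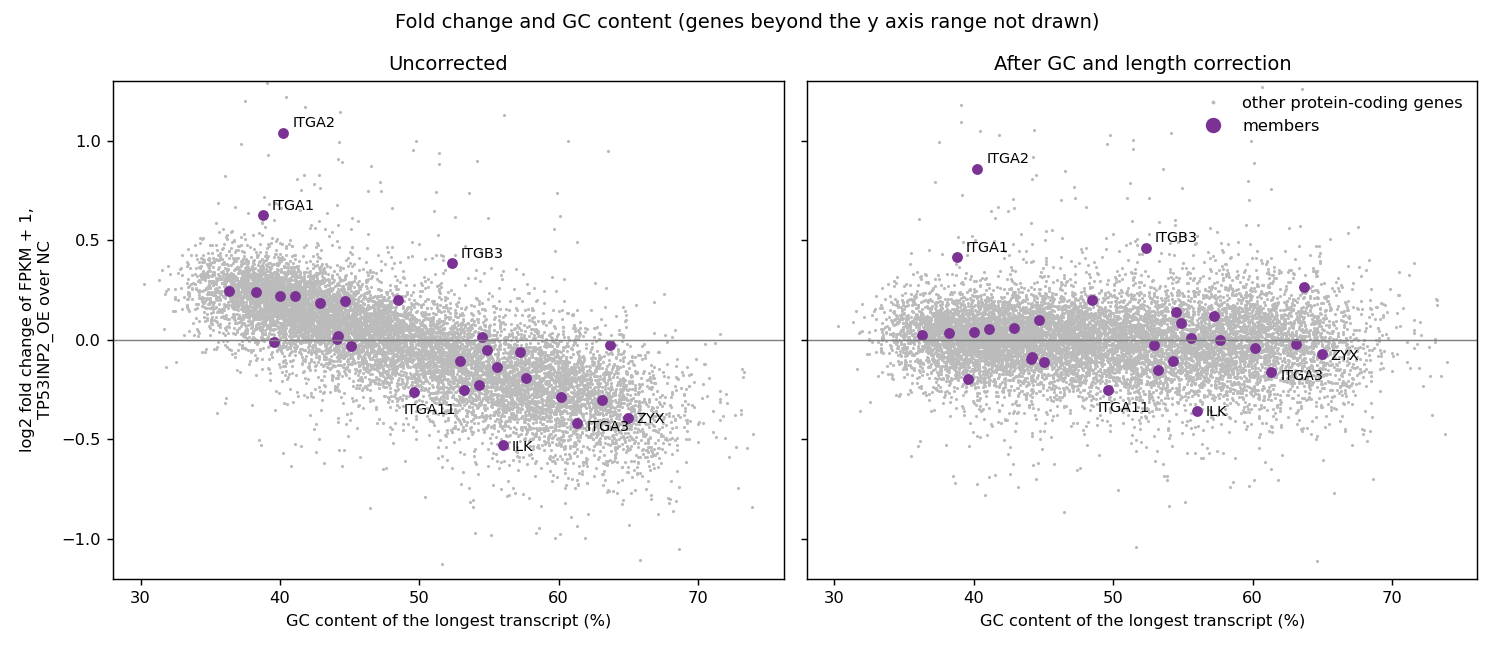
Log2 fold change of FPKM + 1 (TP53INP2_OE over NC) against GC content of the longest transcript, before (left) and after (right) the correction for GC content and length, with protein-coding genes in grey and the 29 tested members in purple. Before it most members lie on the falling trend of all genes, with ITGA2, ITGA1 and ITGB3 above it, and 4 grey genes on the left and 3 on the right lie outside the axis range and are not drawn.

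Of the collagen-binding subunits, all 3 that were called passed in both fits. ITGA2 had a corrected log2 fold change of 0.86 ± 0.086 (SE; limma, adjusted p = 0.00737), and ITGA1 one of 0.42 ± 0.059 (SE; limma, adjusted p = 0.0132). ITGA11 stood at -0.25 (limma, adjusted p = 0.0476), close to its uncorrected value. ITGA2 passed in all 6 corrected fits that left out a library, with values between 0.80 and 0.96. ITGA1 passed in 5 of these fits and missed the threshold without NC replicate 1, at 0.41 (limma, adjusted p = 0.0608). ITGA11 passed in 1 of them, the fit without TP53INP2_OE replicate 1.

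The laminin-binding subunits went in opposite directions before the correction. ITGA3 (chromosome 17, 50055968 to 50090481), whose product binds laminins of epithelial basement membrane, was at 70.2, 63.3 and 65.9 FPKM in TP53INP2_OE, against 93.0, 87.4 and 87.1 FPKM in NC. Every TP53INP2_OE library was below every NC library, and ITGA3 fell by 0.42 on the log2 scale (SE 0.049; limma, adjusted p = 0.00290). After the correction it stood at -0.16 (limma, adjusted p = 0.0241), and it passed in 2 of the 6 corrected fits that left out a library, where it lay between -0.15 and -0.18. It was lost without NC replicate 1 or 3 or TP53INP2_OE replicate 2 or 3 (limma, adjusted p = 0.0934, 0.0703, 0.0711 and 0.0674). ITGA6 (chromosome 2, 172427354 to 172506459), the partner of beta 1 and beta 4, was at 57.9, 60.2 and 59.3 FPKM in TP53INP2_OE, against 51.8, 51.1 and 52.8 FPKM in NC. Its groups were apart with a log2 fold change of 0.18 (limma, adjusted p = 0.00662), but at 0.060 after the correction it did not pass (limma, adjusted p = 0.166).

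Of the RGD-binding subunits, ITGA5, the fibronectin receptor subunit on chromosome 12, was the highest alpha gene in NC and TP53INP2_OE alike. It was at 113, 113 and 117 FPKM in TP53INP2_OE, against 116, 123 and 101 FPKM in NC. The groups overlapped, and the difference was 0.014 on the log2 scale with a 95% interval from -0.16 to 0.18 (limma, adjusted p = 0.90). ITGAV (chromosome 2, 186590056 to 186680901), which pairs with beta 1, 3, 5, 6 and 8 and activates latent TGF-beta, was at 50.2, 55.6 and 52.0 FPKM in TP53INP2_OE, against 42.9, 44.2 and 46.1 FPKM in NC. It rose by 0.24 without the correction (limma, adjusted p = 0.0112) and stood at 0.033 with it (limma, adjusted p = 0.541). Long noncoding RNAs on the opposite strand cover 100% of the ITGA5 span and 32.4% of the ITGA6 span, at no more than 2.45 and 2.98 FPKM in any library.

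The summed alpha subunit RNA was taken on the per-length FPKM scale, without the correction. It was 418 ± 6.63 FPKM in TP53INP2_OE and 368 ± 14.6 FPKM in NC. ITGA2 made up 24.9%, 26.2% and 26.3% of it in the TP53INP2_OE libraries, against 12.8%, 15.6% and 14.1% in the NC libraries. ITGA3 made up 15.9 ± 1.07% in TP53INP2_OE and 24.2 ± 1.22% in NC, so ITGA2 stood above ITGA3 in every TP53INP2_OE library and below it in every NC library. The ratio of ITGA2 to ITGA3 within a library was 1.46, 1.75 and 1.69 in TP53INP2_OE, against 0.509, 0.681 and 0.571 in NC. ITGA5, at 27.3 ± 0.40% and 30.7 ± 1.91%, ITGA6, at 14.1 ± 0.17% and 14.1 ± 0.80%, and ITGAV, at 12.6 ± 0.56% and 12.1 ± 0.85% in TP53INP2_OE and NC, moved less. Two-sided exact permutation p-values were 0.1 for the shares of ITGA2, ITGA3 and ITGA5, 1.0 for ITGA6 and 0.5 for ITGAV. Shares in a sum depend on each other, so a larger ITGA2 share lowers the rest. The level of ITGA5 itself did not pass (log2 fold change 0.014; limma, adjusted p = 0.90).

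**Figure D3:**
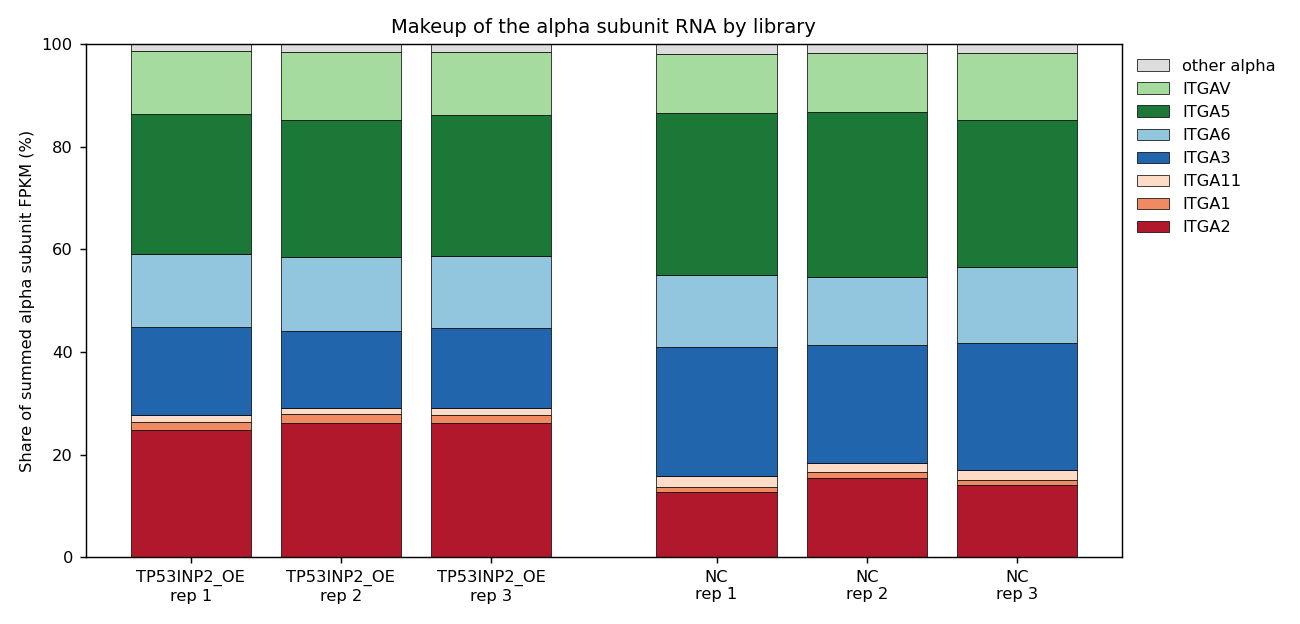
Stacked bars of the share of each alpha subunit gene in the summed alpha subunit FPKM of a library, in percent, for the 3 TP53INP2_OE libraries (left) and the 3 NC libraries (right). The ITGA2 share is between 24.9% and 26.3% in TP53INP2_OE and between 12.8% and 15.6% in NC.

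ITGB1, the beta subunit shared by the collagen, laminin and fibronectin receptors, was the highest of all members. It was at 139, 152 and 146 FPKM in TP53INP2_OE, against 125, 124 and 125 FPKM in NC (chromosome 10, 32900318 to 33005792). The groups were apart, with a log2 fold change of 0.22 (limma, adjusted p = 0.00677), which was 0.041 after the correction (limma, adjusted p = 0.368). The alpha subunits that can pair with beta 1 summed to 416 ± 6.42 FPKM in TP53INP2_OE and 366 ± 14.3 FPKM in NC. This sum includes ITGA2, whose own mean was 108 FPKM in TP53INP2_OE and 52.2 FPKM in NC, so its rise is no rise of the partners in common. Per library their sum was 2.85 ± 0.09 times ITGB1 in TP53INP2_OE and 2.93 ± 0.12 times in NC (two-sided exact permutation p = 0.5), while the ratio of ITGA2 alone to ITGB1 was 0.741 ± 0.019 and 0.418 ± 0.054 in TP53INP2_OE and NC (p = 0.1 in the same exact test).

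ITGB3, the beta subunit of the vitronectin receptor with alpha V, was the third member that rose with and without the correction. It was at 7.21, 7.34 and 7.71 FPKM in TP53INP2_OE, against 5.49, 5.96 and 4.93 FPKM in NC (chromosome 17, 47253846 to 47313735). No TP53INP2_OE library was as low as an NC library, and the log2 fold change came to 0.38 ± 0.067 (SE; limma, adjusted p = 0.00690). Its transcript has 52.3% GC, the highest among the members that rose, and the corrected value was 0.46 ± 0.061 (SE; limma, adjusted p = 0.0119). Without NC replicate 1 it was also 0.46 and missed the threshold (limma, adjusted p = 0.0555). ITGB5, the other main partner of alpha V here, was at 43.4, 43.2 and 42.0 FPKM in TP53INP2_OE, against 50.6, 50.3 and 50.1 FPKM in NC. It fell by 0.23 (limma, adjusted p = 0.00345), and stood at -0.10 after the correction (limma, adjusted p = 0.0811). The ratio of ITGB3 to ITGB5 was 0.173 ± 0.009 in TP53INP2_OE and 0.109 ± 0.010 in NC, with ITGB5 the higher gene in every library. ITGB4, the hemidesmosome subunit, was at 0.607 ± 0.065 FPKM in TP53INP2_OE and 0.634 ± 0.040 FPKM in NC and did not pass (limma, adjusted p = 0.881). GALK1, at up to 14.6 FPKM, covers 17.1% of the ITGB4 span on the opposite strand, so the reads of ITGB4 are uncertain.

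The remaining tested integrin genes were low and did not pass with or without the correction. ITGA4, a subunit for fibronectin and VCAM1, was at 2.41 ± 0.14 FPKM in TP53INP2_OE and 2.40 ± 0.13 FPKM in NC. ITGAE, known from lymphocytes that bind E-cadherin, was at 2.33 ± 0.09 FPKM in TP53INP2_OE and 2.46 ± 0.38 FPKM in NC, and its span holds HASPIN on the opposite strand at up to 7.34 FPKM, so its reads are uncertain. ITGBL1, which encodes a secreted beta-like protein and no receptor subunit, was at 1.86 ± 0.09 FPKM in TP53INP2_OE and 1.89 ± 0.24 FPKM in NC.

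Among the 14 adaptors, 4 rose and 6 fell without the correction, where 16.4% of all tested genes rose and 18.6% fell, and none passed with it, where 10.4% of all genes passed. Those that rose were the kindlin genes FERMT2 and FERMT1, LIMS1 and PTK2, and those that fell were ZYX, BCAR1, PXN, TLN1, TNS3 and ILK. The talins and kindlins, which activate integrins at the beta tail, came on both sides. TLN1 (chromosome 9, 35696948 to 35732195) was at 62.4, 59.4 and 62.8 FPKM in TP53INP2_OE, against 72.6, 70.1 and 68.5 FPKM in NC. Its groups were apart, and it fell by 0.19 uncorrected (limma, adjusted p = 0.0102) and stood at 0.0014 corrected (limma, adjusted p = 0.981), with a corrected 95% interval from -0.059 to 0.062. TLN2 was at 2.14 ± 0.14 FPKM in TP53INP2_OE and 2.38 ± 0.14 FPKM in NC and did not pass (limma, adjusted p = 0.272). The ratio of TLN2 to TLN1 was 0.0348 ± 0.0016 in TP53INP2_OE and 0.0338 ± 0.0014 in NC.

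FERMT2, the kindlin of mesenchymal cells, was at 15.8, 17.7 and 16.9 FPKM in TP53INP2_OE, against 14.7, 13.9 and 13.4 FPKM in NC. It has the lowest GC content of the tested members, 36.3%, and its log2 fold change was 0.25 uncorrected and 0.026 corrected (limma, adjusted p = 0.0149 and 0.776). FERMT1, the epithelial kindlin, was at 6.65, 7.31 and 7.24 FPKM in TP53INP2_OE, against 6.34, 5.82 and 5.89 FPKM in NC. Both kindlin genes had groups that did not overlap. FERMT1 kept its size with the correction, 0.20 in both fits, but passed only without it (limma, adjusted p = 0.0295 uncorrected and 0.0664 corrected). The uncorrected call of FERMT1 was lost in 4 of 6 fits that left out a library, all but those without NC replicate 1 or TP53INP2_OE replicate 1, with limma adjusted p between 0.0827 and 0.0959. Without NC replicate 2 the call of FERMT2 was lost as well (0.24; limma, adjusted p = 0.0516).

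Zyxin, p130Cas and paxillin, which assemble under tension or scaffold signalling at the adhesion, were lower before the correction. ZYX was at 83.9, 73.9 and 80.3 FPKM in TP53INP2_OE, against 108, 102 and 103 FPKM in NC, with a log2 fold change of -0.39 (limma, adjusted p = 0.00347). BCAR1, the gene of p130Cas, was at 24.7, 23.5 and 24.0 FPKM in TP53INP2_OE, against 30.4, 30.3 and 29.1 FPKM in NC, with a log2 fold change of -0.30 (limma, adjusted p = 0.00310). PXN, the gene of paxillin, was at 19.1, 16.5 and 19.2 FPKM in TP53INP2_OE, against 23.5, 21.9 and 21.9 FPKM in NC, with a log2 fold change of -0.29 (limma, adjusted p = 0.0160). All 3 genes had groups that were apart and GC contents of at least 60.2%. Their corrected log2 fold changes were -0.073 for ZYX, -0.022 for BCAR1 and -0.043 for PXN, and limma gave adjusted p = 0.183 for ZYX, 0.680 for BCAR1 and 0.569 for PXN. The uncorrected call of PXN was lost without NC replicate 1 (-0.25; limma, adjusted p = 0.0595). PTK2, the gene of the focal adhesion kinase, was at 16.0, 16.5 and 15.7 FPKM in TP53INP2_OE, against 14.1, 13.8 and 13.9 FPKM in NC. It was 0.20 higher uncorrected and 0.10 higher corrected (limma, adjusted p = 0.00846 and 0.0900).

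In the complex of ILK, PINCH and parvin, the 3 genes differed. LIMS1, the gene of PINCH1, was at 19.4, 21.1 and 20.4 FPKM in TP53INP2_OE, against 16.9, 17.7 and 17.3 FPKM in NC, with a log2 fold change of 0.22 uncorrected and 0.055 corrected (limma, adjusted p = 0.00950 and 0.345). Its near-identical copies LIMS3 and LIMS4 had at most 0.0961 FPKM, and since reads can match several copies all 3 are uncertain. PARVA, the gene of alpha-parvin, was at 15.1 ± 0.10 FPKM in TP53INP2_OE and 14.9 ± 0.49 FPKM in NC and did not pass (limma, adjusted p = 0.75). ILK, the pseudokinase at the centre of the complex, was at only 0.337, 0.301 and 0.690 FPKM in TP53INP2_OE, against 1.09, 1.15 and 0.967 FPKM in NC, or 18 to 71 reads per library. It fell by 0.53 on the log2 scale of FPKM + 1 uncorrected (limma, adjusted p = 0.0238) and stood at -0.36 corrected (limma, adjusted p = 0.134). At so low a level the added 1 shrinks the change. A pseudocount of 0.1 gave -1.17 and voom on recovered reads -1.36 (limma, adjusted p = 0.0302 and 0.000448). The uncorrected call of ILK was lost without NC replicate 1 or 2 or TP53INP2_OE replicate 1 or 2 (limma, adjusted p between 0.0584 and 0.0786). TAF10 covers 63.9% of the ILK span on the opposite strand and was also low, with a mean of 1.11 FPKM in TP53INP2_OE and 2.63 FPKM in NC and a log2 fold change of -0.79 (limma, adjusted p = 0.00597). The sources used here do not say how reads in the shared stretch were assigned, and both levels are uncertain.

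Vinculin and the tensins, which link the adhesion to actin, had small differences. VCL was at 55.8, 54.8 and 54.5 FPKM in TP53INP2_OE, against 57.5, 54.6 and 56.6 FPKM in NC. Its groups overlapped, and its log2 fold change was -0.031 with a 95% interval from -0.11 to 0.047 (limma, adjusted p = 0.510) and -0.11 after the correction (limma, adjusted p = 0.0612). TNS1 was at 7.55 ± 0.39 FPKM in TP53INP2_OE and 7.91 ± 0.37 FPKM in NC and did not pass (limma, adjusted p = 0.440). TNS3 was at 16.0, 15.1 and 15.1 FPKM in TP53INP2_OE, against 17.3, 16.8 and 17.01 FPKM in NC, and fell by 0.14 (limma, adjusted p = 0.0324). Corrected, TNS3 stood at 0.0088, and its uncorrected call held in only 1 of 6 fits that left out a library, the one without TP53INP2_OE replicate 1, with limma adjusted p between 0.0705 and 0.108 in the other 5.

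**Figure D4:**
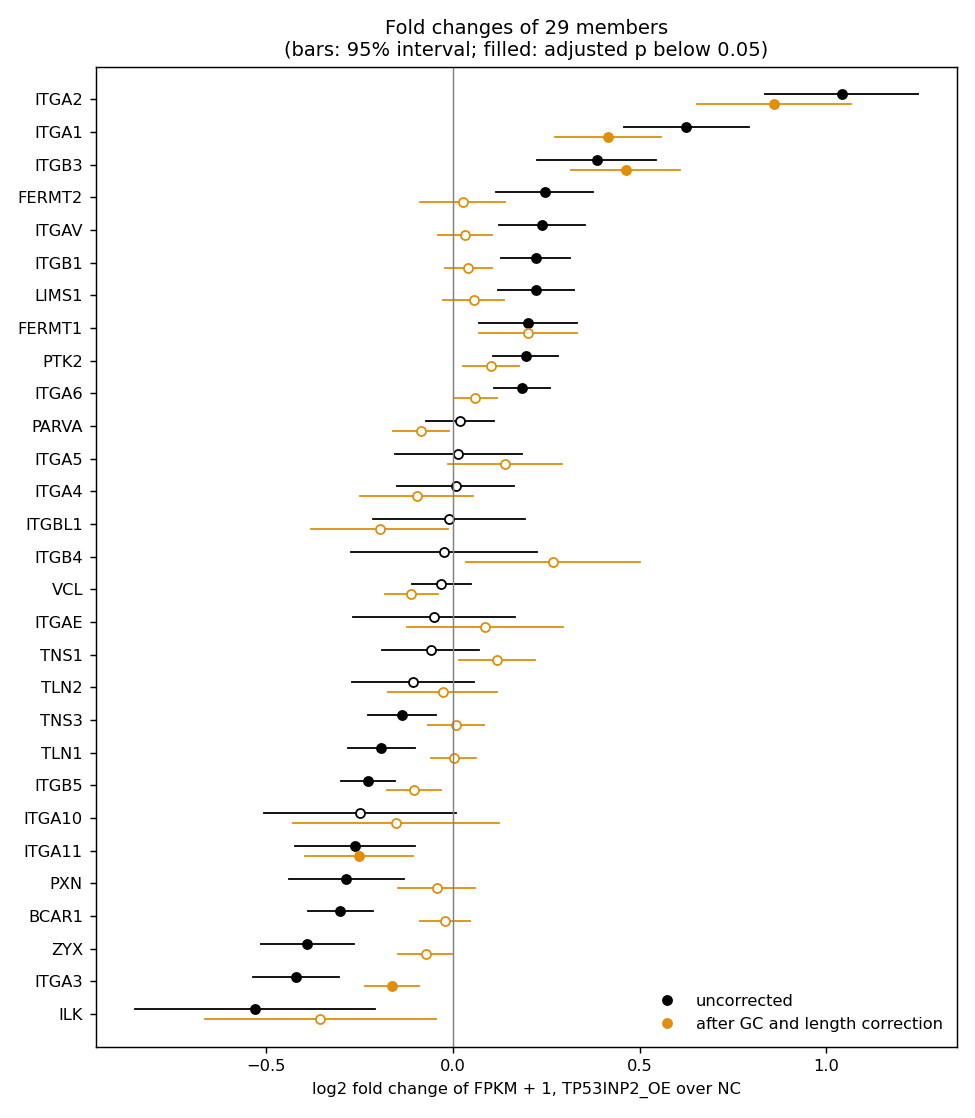
Log2 fold change of FPKM + 1 (TP53INP2_OE over NC) with its 95% interval for the 29 tested members, uncorrected in black and corrected for GC content and length in orange, filled where the adjusted p is below 0.05. Filled orange points are ITGA2, ITGA1 and ITGB3 on the right of 0 and ITGA11 and ITGA3 on the left.

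The 12 untested members averaged below the filter of 0.5 FPKM. ITGB8, which activates TGF-beta with alpha V, was the highest, at 0.457 ± 0.045 FPKM in TP53INP2_OE and 0.353 ± 0.103 FPKM in NC, and had 61 to 125 reads per library, so the filter and not its depth kept it from the test. The platelet subunit ITGA2B did not exceed 0.325 FPKM, the leukocyte beta subunit ITGB2 did not exceed 0.348 FPKM and its partner ITGAX did not exceed 0.224 FPKM. ITGA9 and ITGA7 had at most 0.179 and 0.0886 FPKM, and ITGB6, ITGB7, ITGA8, ITGAM and ITGAL at most 0.0307 FPKM in any library. ITGAD had no read in any library.

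Beyond the members, 3 lists of further adhesion genes were read from the same fit. Their medians stand beside 0.0032 uncorrected and 0.0016 corrected over all tested genes. The shares called higher and lower over all tested genes were 16.4% and 18.6% uncorrected, and 4.53% and 5.88% corrected. Of 21 tested ligand and matrix genes of 30 listed, 3 rose and 6 fell uncorrected (median log2 fold change -0.023), and 2 rose and 2 fell corrected (0.062). The 2 corrected rises, named after their values were seen, were not among the uncorrected ones. They were the laminin chain genes LAMB3, at 0.095 uncorrected and 0.32 corrected (limma, adjusted p = 0.376 and 0.0278), and LAMA5, at -0.17 uncorrected and 0.14 corrected (limma, adjusted p = 0.0526 and 0.0446). With any single library left out at most 1 gene of this list was called higher, and without NC replicate 1 there were 3 falls. The falls included THBS1, a matricellular ligand of several integrins, at 29.05 ± 0.53 FPKM in TP53INP2_OE and 36.9 ± 2.17 FPKM in NC, with log2 fold changes of -0.33 uncorrected and -0.40 corrected (limma, adjusted p = 0.00425 and 0.00856). Its relative THBS2 fell by 0.32 uncorrected and by 0.26 corrected, and AGRN fell by 0.32 uncorrected and stood at -0.0015 corrected. FN1, the fibronectin gene, was at 629 ± 18.7 FPKM in TP53INP2_OE and 565 ± 24.1 FPKM in NC, and LAMC1, a laminin chain, and FBN1, a microfibril protein, were the other rises. FN1, LAMC1 and FBN1 rose by 0.15, 0.12 and 0.14 uncorrected and none of them passed after the correction.

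Of 29 tested further adaptors of 33 listed, 4 rose and 13 fell uncorrected (median -0.13), and 3 rose and 7 fell corrected (-0.040). Some corrected calls, named after their values were seen, were not among the uncorrected ones. PDLIM7 stood at -0.058 uncorrected and 0.25 corrected (limma, adjusted p = 0.562 and 0.0230), and TNS4 at 0.23 and 0.44 (limma, adjusted p = 0.127 and 0.0354). RSU1 stood at -0.062 uncorrected and -0.16 corrected (limma, adjusted p = 0.204 and 0.0287). Over all tested genes 16.4% rose and 18.6% fell uncorrected, and 4.53% rose and 5.88% fell corrected. VASP, an actin elongation factor that zyxin recruits, was at 32.9 ± 3.97 FPKM in TP53INP2_OE and 52.3 ± 1.71 FPKM in NC, with log2 fold changes of -0.66 uncorrected and -0.41 corrected (limma, adjusted p = 0.00329 and 0.0146). TRIP6, a zyxin relative, was at 11.7 ± 0.60 FPKM in TP53INP2_OE and 19.0 ± 1.13 FPKM in NC and passed in both fits (-0.66 and -0.35). ITGB1BP1, which encodes ICAP1, a protein that competes with talin for the beta 1 tail, was at 7.70 ± 0.79 FPKM in TP53INP2_OE and 11.3 ± 0.71 FPKM in NC. Its log2 fold change was -0.50 uncorrected and -0.62 corrected (limma, adjusted p = 0.00530 and 0.0126). TES, a LIM protein of focal adhesions, rose by 0.31 uncorrected and 0.21 corrected and passed in both, while RAP1B and PDLIM5 rose by 0.31 and 0.24 uncorrected and did not pass corrected.

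Of 26 tested adhesion signalling genes of 27 listed, 9 rose and 7 fell uncorrected (median 0.099), and 3 rose and 4 fell corrected (0.046). The shares that rose and fell over all tested genes were 16.4% and 18.6% uncorrected, and 4.53% and 5.88% corrected. The 3 largest rises, PTPN12 at 0.40, ROCK2 at 0.35 and YES1 at 0.34, also passed corrected, at 0.23, 0.16 and 0.14. PTPN12 encodes a phosphatase that acts on p130Cas, ROCK2 a kinase of actomyosin contraction and YES1 a SRC family kinase. The adaptor gene SHC1 fell by 0.34 uncorrected and by 0.15 corrected and passed in both. PTPN11, named after its values were seen, passed only corrected, at -0.0046 uncorrected and -0.15 corrected (limma, adjusted p = 0.924 and 0.0220). CSK, which restrains SRC kinases, and RAPGEF1 fell by 0.35 and 0.24 uncorrected and stood at -0.051 and -0.020 corrected, where neither passed.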

How the data were processed

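RNA extracted with Trizol was made into libraries with an Illumina TruSeq kit, per the labels. The authors deposited FPKM for 60843 genes in 6 libraries, beside gene length in bases. Bowtie 0.12.2 and 2 builds, mm8 and GRCh38, stand in the submitters' processing notes with no role given. The counting step and its strand setting are not stated in the labels. All 41 members were found in GENCODE 29 (GRCh38), 37 of them with the same start or end. FPKM times length came in whole steps for 100% of values above 0 (tolerance 0.01), taken as reads.

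Genes averaging at least 0.5 FPKM were compared as log2(FPKM + 1), which understates changes of low genes, by limma 3.58.1 in R 4.3.3 (Benjamini-Hochberg over 14791 genes, threshold 0.05). All 6 libraries entered 1 fit. The correction fitted splines with 5 degrees of freedom, on GC content and on log2 length, to the deviations of each library from gene means. GC content was known for 98.4% of tested genes. Alternatives were a pseudocount of 0.1, no filter, TPM, voom on recovered reads, a replicate block and leaving out each library. The corrected fit without each library was added after seeing the data. All members are named, with values per library for those past the threshold, and from the other lists the 3 largest rises and falls. Members and lists were chosen with earlier results of these data known. No pair of libraries was alike within sampling noise (chi-square per degree of freedom at least 2.57).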

Additional observations from a re-analysis of the deposited data

How the results depend on the processing

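Without the GC correction the counts of member calls moved little with the pseudocount, the filter, TPM or voom. These settings gave 9 or 10 rises and 7 to 10 falls. With no filter the calls of ITGA11, FERMT1 and ILK were lost (limma, adjusted p = 0.0635, 0.0650 and 0.0678). Over all genes the pseudocount of 0.1 gave 2431 rises and 2741 falls, and TPM gave 2661 and 2550. Voom on recovered reads called 2886 genes higher and 3250 lower. With no filter 1683 of 32504 genes rose and 1965 fell. Leaving out a library gave 8 to 10 member rises and 5 to 8 falls, and over all genes 1460 to 2203 rises and 1816 to 2576 falls. It gave 0 to 1 rises and 3 to 6 falls among ligand and matrix genes. With no filter the ligand and matrix rises were 0.

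The correction left 3 member rises and 2 falls, and 659 rises and 855 falls over all genes. It left 2 ligand and matrix falls, 7 further adaptor falls, and 3 rises and 4 falls among signalling genes. Leaving out a library as well gave 1 to 3 member rises and 0 to 2 falls.

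Same-numbered deviations correlated at 0.017, 0.012 and 0.011 uncorrected, and at 0.0014, 0.030 and 0.020 corrected. Not every library correlated best with its own number. Values this near 0 do not decide whether the replicate numbers pair the libraries. With the replicate block 9 members rose and 7 fell, beside 1980 rises and 2416 falls over all genes. In that fit 1 ligand and matrix gene rose. With the block and the correction 3 members rose and 0 fell, beside 267 rises and 401 falls over all genes. This fit gave 0 rises and 1 fall among ligand and matrix genes, 0 and 4 among further adaptors, and 1 and 0 among signalling genes.

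Signs of uncalled or lost values turned in some settings. With the correction, with or without the block, the log2 fold change was -0.085 for PARVA, 0.0014 for TLN1, 0.12 for TNS1, 0.0088 for TNS3, -0.098 for ITGA4, 0.27 for ITGB4 and 0.086 for ITGAE. TPM gave 0.0025 for ITGBL1. Without single libraries ITGA5 lay between -0.067 and 0.073, ITGA4 between -0.025 and 0.040, ITGBL1 between -0.079 and 0.040, ITGB4 between -0.047 and 0.0091, and ITGAE between -0.13 and 0.025. The cause was not tested. TP53INP2 was called in every setting. The group means of the summed beta 1 partners and of ITGB1 were recomputed only with TPM and without each library, and stayed higher in TP53INP2_OE. In the limma fits ITGB1 stood at 0.041 with the correction and did not pass, without or with the block (adjusted p = 0.368 and 0.444). ILK, ITGB4 and ITGA10 rest on at most 153 reads per library, where counting error limits the comparison.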
